A study of Mus musculus with 8 samples.

Results

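The 4 cavins (Cavin1, Cavin2, Cavin3 and Cavin4), the 4 EHD ATPases (Ehd1, Ehd2, Ehd3 and Ehd4) and the pacsins Pacsin1 and Pacsin2 were followed across every group of an RNA-seq study of whole mouse brain. Members were chosen by symbol and not by a cutoff on their values, but earlier results of these data were known. All 10 were found among the 34299 genes of the count table. The groups were wild-type (WT) fetal brain at gestation day 15 (3 libraries), Cav1 knockout (KO) fetal brain at the same day (3 libraries) and Cav1 KO brain at week 70 (2 libraries). Cav1 encodes caveolin 1, and the labels name neither the strain nor how the allele was made. Brain of WT mice at week 70, to which the study design refers, was not analysed here, so that age was compared within the KO alone. The labels call the fetal samples biological replicates but do not say so of the week 70 samples. Counts of Xist and of Y-linked genes, given below, differ between the 2 week 70 libraries as between a female and a male. These libraries thus come from different animals, and p-values that involve week 70 rest in part on a spread that includes sex.

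Caveolae are flask-shaped pits of the plasma membrane that are abundant in endothelium, adipocytes, fibroblasts and muscle. Caveolins embedded in the membrane are covered by a coat of cavins, of which cavin 1 is required for the pit to form, cavin 2 and cavin 3 have tissue-restricted roles and cavin 4 belongs to striated muscle. EHD2, an ATPase of the dynamin superfamily, sits at the neck of the pit and stabilises it at the cell surface, while EHD1, EHD3 and EHD4 act mainly in the recycling of endosomes. Pacsins, also called syndapins, bend membranes with an F-BAR domain: pacsin 2 is widespread and takes part in caveola formation, and pacsin 1 is a neuronal protein of synaptic vesicle endocytosis.

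The sequence upstream of the transcription start is shown for 5 members whose results lie at the extremes: Ehd2 and Ehd4 had large falls in the fetal KO brain, Cavin2 was the cavin with the smallest fall that passed the test, Pacsin1 had the largest rise with age, and Cavin4 was the member that fell with age. Sequences are RefSeq's on GRCm38.p6, 5′ to 3′ on the gene's strand, and are cut where an annotated exon of the gene begins. The Pacsin1 window precedes RefSeq's start but lies inside the gene as GENCODE annotates it (chr17:27655509-27711482). Capitals mark the letters of a CCAAT box (CCAAT), a GC box (GGGCGG) or a TATA box (TATAAA) on either strand.
Cavin2, chr1:51288876-51289125, plus strand: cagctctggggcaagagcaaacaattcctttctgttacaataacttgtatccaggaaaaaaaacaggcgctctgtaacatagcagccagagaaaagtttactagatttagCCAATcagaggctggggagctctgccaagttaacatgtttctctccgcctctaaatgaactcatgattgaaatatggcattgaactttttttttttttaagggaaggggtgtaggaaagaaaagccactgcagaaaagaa
Cavin4, chr4:48663264-48663513, plus strand: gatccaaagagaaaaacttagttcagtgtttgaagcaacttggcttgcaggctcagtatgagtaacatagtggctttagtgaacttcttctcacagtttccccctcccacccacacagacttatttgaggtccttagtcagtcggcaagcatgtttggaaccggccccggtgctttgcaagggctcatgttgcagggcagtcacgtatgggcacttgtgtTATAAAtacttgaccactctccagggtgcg
Ehd2, chr7:15967568-15967785, minus strand: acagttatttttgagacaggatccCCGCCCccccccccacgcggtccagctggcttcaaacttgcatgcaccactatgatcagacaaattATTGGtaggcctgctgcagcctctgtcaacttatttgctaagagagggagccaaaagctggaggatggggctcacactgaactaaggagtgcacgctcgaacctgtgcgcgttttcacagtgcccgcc
Ehd4, chr2:120154607-120154825, minus strand: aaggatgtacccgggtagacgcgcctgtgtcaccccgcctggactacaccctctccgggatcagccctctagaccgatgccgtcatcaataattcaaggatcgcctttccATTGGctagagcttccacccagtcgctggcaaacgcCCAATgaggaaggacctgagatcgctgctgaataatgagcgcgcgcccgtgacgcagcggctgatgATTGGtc
Pacsin1, chr17:27684989-27685180, plus strand: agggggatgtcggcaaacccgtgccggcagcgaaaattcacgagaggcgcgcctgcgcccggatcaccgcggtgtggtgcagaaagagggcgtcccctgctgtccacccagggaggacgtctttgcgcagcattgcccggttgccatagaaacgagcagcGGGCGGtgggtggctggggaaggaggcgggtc

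The windows before the start were available for 8 of the 10 members, all but Cavin3 and Ehd1, and those of Cavin1 and Ehd3 lay wholly inside annotated exons and are not printed. Cavin4 was the member with a TATA box, 30 bases before the start, a motif held by 13% of 27025 promoters of the same length. The Ehd4 window held 3 CCAAT boxes and 1 GC box, and those of Cavin1 and Ehd2 held 1 of each. Pacsin1 held 2 GC boxes and no CCAAT box, and Pacsin2 held 2 CCAAT boxes and 1 GC box. Motifs and base composition were taken over whole windows of 250 bases, exon bases included. The GC box of Ehd4 and 1 GC box of Pacsin1 therefore lie in exon bases that are not printed. A CCAAT box was present in 34.5% and a GC box in 33% of all promoters. Base composition also differed: GC content was 70.4% in the Pacsin1 window and 67.6% in that of Cavin1, against 40.4% for Cavin2, 48.8% for Cavin4 and a median of 52% over all promoters. These letter matches are descriptions of the windows and do not show that a factor binds there.

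The libraries held 14110031 to 20833397 counts. Every WT library held at least 19414747 and no fetal KO library more than 15245283, and since the labels give no batch or date, a batch and the genotype cannot be told apart. WT day 15 replicate 1 stood apart from the other WT libraries: summed markers of fibroblasts and meninges reached 4780 CPM (counts scaled to a common library total, normalised for composition) there, against 376 and 619 in WT replicates 2 and 3, and cartilage and bone markers reached 770 against 133 and 121. For several members the result is therefore also given without this library, while marker and partner lists are given only with it included. Fetal libraries held at most 4 counts of Y-linked genes and at least 54531 of Xist. Week 70 replicate 1 held 7969 counts of Xist and 0 of Y-linked genes, and replicate 2 held 4 and 2219. The week 70 libraries thus differed in sex, and only replicate 2 had a clear Y-linked signal, so that sex was not balanced between the ages. Neuron markers were present in every library and summed to 3420 to 5150 CPM in the fetal libraries and to 18500 and 17700 CPM at week 70. In fetal brain, genes that were long or rich in G and C tended to be lower in KO. Spearman's rho between the log2 fold change and the gene's total exon length was -0.335. That with GC content was -0.477, both over 19050 genes, which are not independent replicates.

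Per kilobase of exon, the scale on which genes can be compared, Ehd1 was the most abundant member in WT fetal brain at 30.3 CPM per kb, followed by Cavin1 at 10.3, Pacsin2 at 6.65, Pacsin1 at 6.21, Cavin3 at 4.44 and Ehd3 at 4.38. Ehd2, Ehd4, Cavin4 and Cavin2 lay between 1.77 and 2.8 CPM per kb. In KO fetal brain Ehd1 was again highest at 11.7 CPM per kb and Ehd2 was lowest at 0.708. At week 70 Pacsin1 led with 84.8 CPM per kb, and Cavin4 was lowest at 0.274. Ehd1 in the fetal groups and Pacsin1 at week 70 were also highest when the longest transcript was used as the length, but several neighbours in the middle of the order changed places, among them Cavin3 and Ehd3. Among 18217 protein-coding genes, Ehd1 stood at the 92.7th percentile in WT fetal brain and Pacsin1 at the 96.2nd at week 70.

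**Figure D1:**
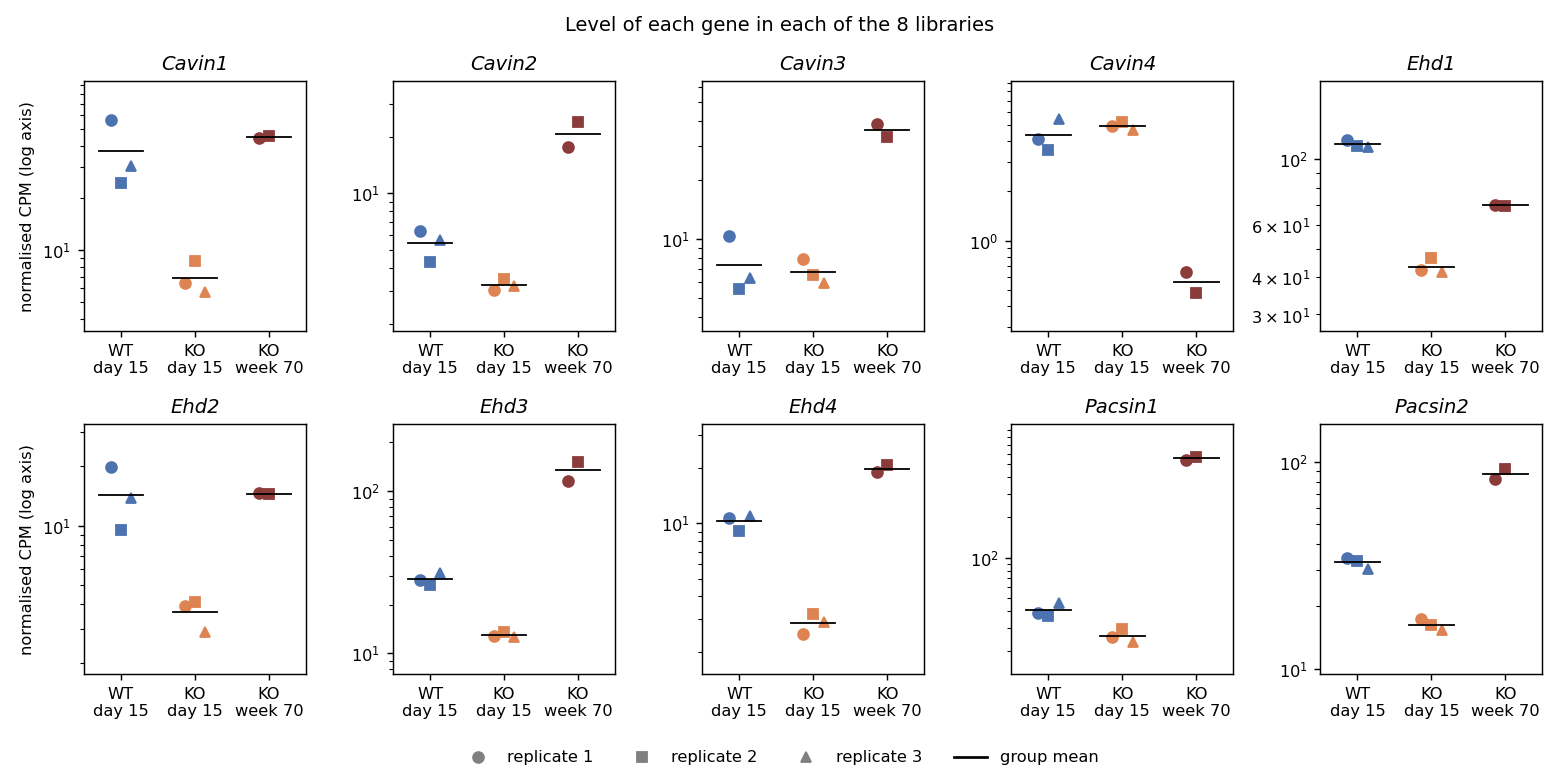
Normalised CPM of the 10 genes in each library, on a log axis whose range differs between panels; circles, squares and triangles are replicates 1, 2 and 3 and the line is the group mean. Cavin1, Ehd2 and Ehd4 show a dip in the fetal KO group between the WT and week 70 groups, Pacsin1 lies highest at week 70 in both libraries, and Cavin4 is the member that lies lowest at week 70.

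The first comparison asked how these genes differed between Cav1 KO and WT fetal brain. In KO, 8 of the 10 members were lower and none was higher, and the same 8 did not overlap between the groups. The largest falls were those of Cavin1, Ehd4 and Ehd2, which were 5.04-fold, 3.34-fold and 3.72-fold lower, while Cavin3 and Cavin4 did not pass the test. Over all 19147 genes tested, 62.6% passed the threshold of an adjusted p of 0.05 (edgeR's quasi-likelihood test with Benjamini-Hochberg adjustment), 32.5% passed as lower and 30.1% as higher, and 68.5% did not overlap between the groups. The members' median log2 fold change was -0.98, against a median of 0.03 over all genes tested.

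Cavin1, the coat protein required for caveolae, stood at 56.2, 24.4 and 30.7 CPM in WT replicates 1 to 3 and at 6.46, 8.56 and 5.69 CPM in KO replicates 1 to 3. The highest KO library was well below the lowest WT library. Its log2 fold change was -2.33 (SE 0.284, adjusted p 4.04e-05), which placed it among the lowest 0.663% of all genes tested. Without WT replicate 1 the change was -1.93 (adjusted p 1.01e-06), so that this library enlarged the difference without making the call.

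Cavin2, also known as SDPR, a cavin that shapes the coat in endothelium of some organs, had 6.29, 4.29 and 5.66 CPM in WT and 3.05, 3.48 and 3.19 CPM in KO. The groups did not overlap, but the gap between them was small, and the log2 fold change was -0.65 (SE 0.19, adjusted p 0.0124). Without WT replicate 1 it was -0.55 (adjusted p 0.0381). Cavin3, also known as PRKCDBP, had 10.3, 5.56 and 6.27 CPM in WT and 7.84, 6.52 and 5.92 CPM in KO. The Cavin3 values of the groups overlapped, with WT replicate 1 the highest of the 6 libraries. Its log2 fold change of -0.04 had a 95% interval from -0.48 to 0.40 and an adjusted p of 0.888, and its sign turned to 0.13 under upper-quartile scaling and to 0.26 without WT replicate 1.

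Cavin4, the muscle cavin, had 4.14, 3.52 and 5.45 CPM in WT and 4.96, 5.19 and 4.67 CPM in KO, with overlapping groups. Its log2 fold change was 0.27, with a 95% interval from -0.11 to 0.64 and an adjusted p of 0.25, and after correction for length and GC content it was -0.01. Summed markers of striated muscle, in which Cavin4 is usually found, were 91.3 CPM in WT replicate 1 and 25.7 to 43.9 CPM in the other 5 fetal libraries. In WT replicate 1 Cavin4 was at 4.14 CPM, within the range of the other fetal libraries. The part of muscle in the fetal Cavin4 level was not tested.

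Among the EHD ATPases, Ehd2, which encodes the ATPase of the caveolar neck, had 19.8, 9.49 and 13.8 CPM in WT and 3.89, 4.09 and 2.90 CPM in KO. As with Cavin1, WT replicate 1 was the highest library and no KO library reached the lowest WT value. Ehd2 thus fell by 1.89 on the log2 scale (SE 0.251, adjusted p 7.58e-05), or by 1.61 when WT replicate 1 was left out (adjusted p 3.1e-05). Ehd4, an ATPase of endosomal traffic, had 10.7, 9.03 and 11.0 CPM in WT and 2.51, 3.20 and 2.90 CPM in KO. Its libraries lay close together within each group, and its change of -1.74 (SE 0.161, adjusted p 5e-06) was almost the same without WT replicate 1, at -1.73.

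Ehd1, which directs endosomes back to the plasma membrane, had 116, 111 and 110 CPM in WT and 42.2, 46.3 and 41.6 CPM in KO. The spread within groups was small for Ehd1, and its log2 fold change of -1.28 (SE 0.0595, adjusted p 4.9e-08) had the smallest adjusted p of the 10 members. Ehd3, a close paralog of Ehd1, had 28.5, 26.5 and 31.2 CPM in WT and 12.8, 13.6 and 12.6 CPM in KO. Its log2 fold change was -1.06 (SE 0.0938, adjusted p 3.77e-06). All 4 EHD genes were thus lower in each KO library than in any WT library.

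Of the pacsins, Pacsin2 had 34.5, 33.2 and 30.3 CPM in WT and 17.4, 16.2 and 15.4 CPM in KO, and it fell by 0.91 on the log2 scale (SE 0.0872, adjusted p 6.64e-06). Neuronal Pacsin1 had 38.9, 36.9 and 45.8 CPM in WT and 25.7, 29.1 and 23.6 CPM in KO. These groups did not overlap either, and Pacsin1 fell by 0.55 on the log2 scale (SE 0.102, adjusted p 0.000845). Pacsin1 was the called member whose direction depended on the processing: after correction for exon length and GC content it was higher in KO, at 0.27 (adjusted p 0.0276).

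The correction reduced most of the other differences. Ehd1 went from -1.28 to -0.65, Ehd3 from -1.06 to -0.52 and Pacsin2 from -0.91 to -0.47. Cavin1 was -1.78, Ehd4 -1.47 and Ehd2 -1.33 after it, and Cavin2, at 44.4% the member lowest in GC content, went the other way to -1.00. With the correction and without WT replicate 1, an alternative chosen after seeing the data, Cavin1 was -1.39 and Ehd2 -1.06, and 7 of the 10 members passed the test, all lower. Pacsin1 did not pass it there, at 0.21 (adjusted p 0.0718).

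**Figure D2:**
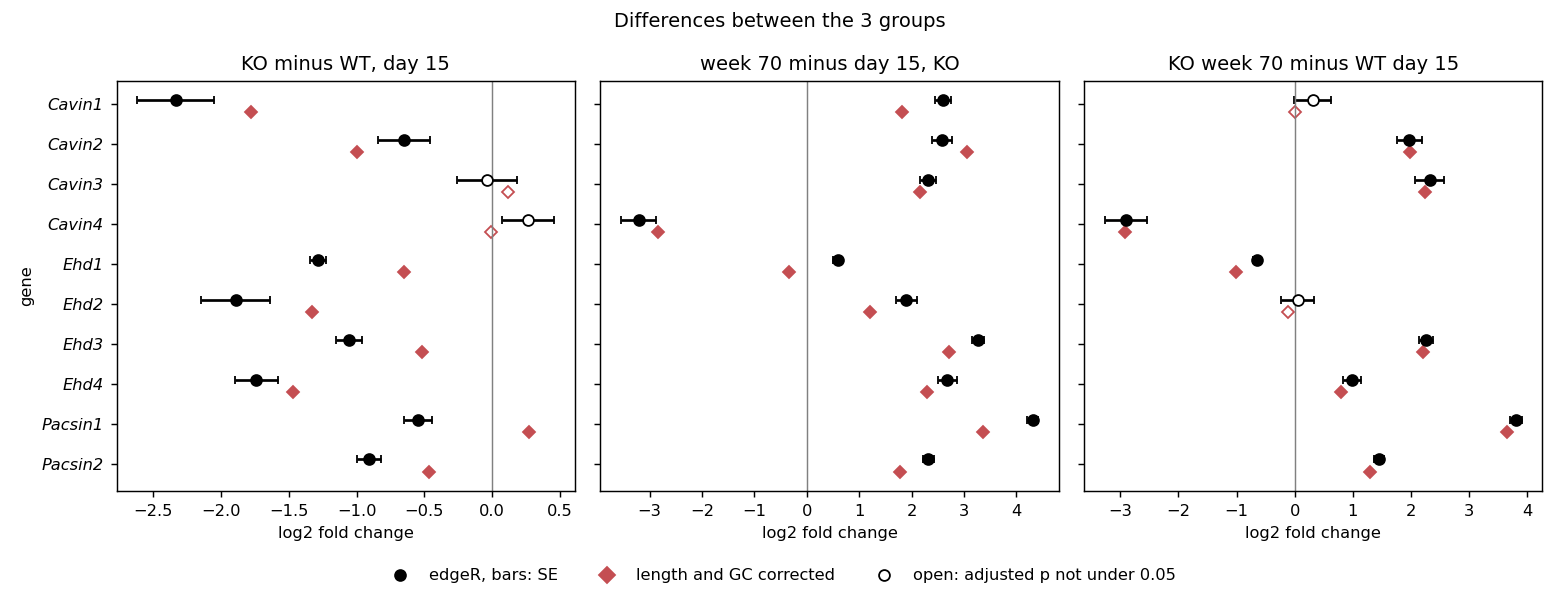
Log2 fold changes of the 10 genes in the 3 comparisons. Black circles are edgeR estimates with bars of 1 SE, red diamonds are estimates after correction for exon length and GC content, and open symbols did not pass an adjusted p of 0.05. In the left panel the corrected values of Pacsin1, Cavin3 and Cavin4 lie on the other side of 0 from the uncorrected ones. The same holds for Ehd1 in the middle panel and for Ehd2 in the right panel.

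Markers of several cell types were lower in KO at day 15, cells that carry caveolae among them. Of 14 tested endothelium markers 10 were lower and 1 was higher in KO (median log2 fold change -1.16), and their summed level was 257 to 357 CPM in WT and 111 to 130 CPM in KO. Of 12 fibroblast and meninges markers 9 were lower and none higher (median -1.97), and the sum was 376 to 4780 CPM in WT and 102 to 200 CPM in KO. Of 10 tested pericyte and smooth muscle markers 6 were lower and 2 higher (median -1.59), with sums of 239 to 305 CPM in WT and 160 to 170 CPM in KO. No gene of these 3 lists was at 0 counts in any library. Of the neural lists, 9 of 10 progenitor markers (median -0.96), 5 of 8 astrocyte markers (median -0.97) and 9 of 14 neuron markers (median -0.70) were lower as well. Of 10 erythroid markers 6 were higher and 2 lower, with sums of 1070 to 1350 CPM in WT and 3560 to 4400 CPM in KO. In bulk tissue, fewer cells of a type and less RNA per cell cannot be told apart, and the part of these cells in the members' differences was not tested.

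Set against summed markers of the same library, the members split, and the split depended in part on the marker list. A sum follows its most abundant markers and does not stand for each marker of the list. Of the pericyte and smooth muscle markers 6 fell and 2 rose in KO. Their median log2 fold change of -1.59 lay near those of Ehd4 (-1.74) and Ehd2 (-1.89), and the endothelium median was -1.16. Cavin1 stood at 15.7, 9.49 and 9.39 CPM per 100 CPM of endothelium markers in WT and at 4.97, 6.96 and 5.13 in KO, without overlap. Ehd2 on this scale was 5.55, 3.69 and 4.22 in WT and 2.99, 3.33 and 2.61 in KO, and Ehd4 was 3.0, 3.51 and 3.36 in WT and 1.93, 2.60 and 2.61 in KO. Per 100 CPM of pericyte and smooth muscle markers these 3 genes were also lower in KO without overlap, with Cavin1 at 10.2 to 18.4 in WT and 3.56 to 5.04 in KO. This did not hold for fibroblast and meninges markers, whose sums were 4780, 376 and 619 CPM in WT and 102, 200 and 124 CPM in KO. With those sums as the scale, all 3 genes overlapped between the groups.

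The other 7 members were not lower per unit of endothelium markers. The groups overlapped for Ehd1, at 32.5 to 43.2 in WT and 32.5 to 37.6 in KO, and for Ehd3, at 7.98 to 10.3 and 9.85 to 11.4. Cavin2, Cavin3, Cavin4, Pacsin1 and Pacsin2 were higher in KO without overlap, Cavin2 at 2.35 to 2.87 against 1.67 to 1.76 in WT and Pacsin1 at 19.8 to 23.7 against 10.9 to 14.4. Per unit of pericyte and smooth muscle markers, of these 5 only Cavin3 and Cavin4 were higher without overlap. Cavin2 overlapped there, at 1.79 to 2.06 in WT and 1.91 to 2.05 in KO, and Ehd1 and Ehd3 were lower in KO without overlap, Ehd1 at 26.0 to 27.2 against 38.0 to 46.4. All these ratios to marker sums are given without a test and rest on CPM that are not corrected for length and GC content. That correction moved members in different directions. The fetal log2 fold change of Cavin2 went from -0.65 to -1.00 and that of Pacsin1 from -0.55 to 0.27. Marker sums were not corrected, so whether the split holds after the correction was not tested.

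**Figure D3:**
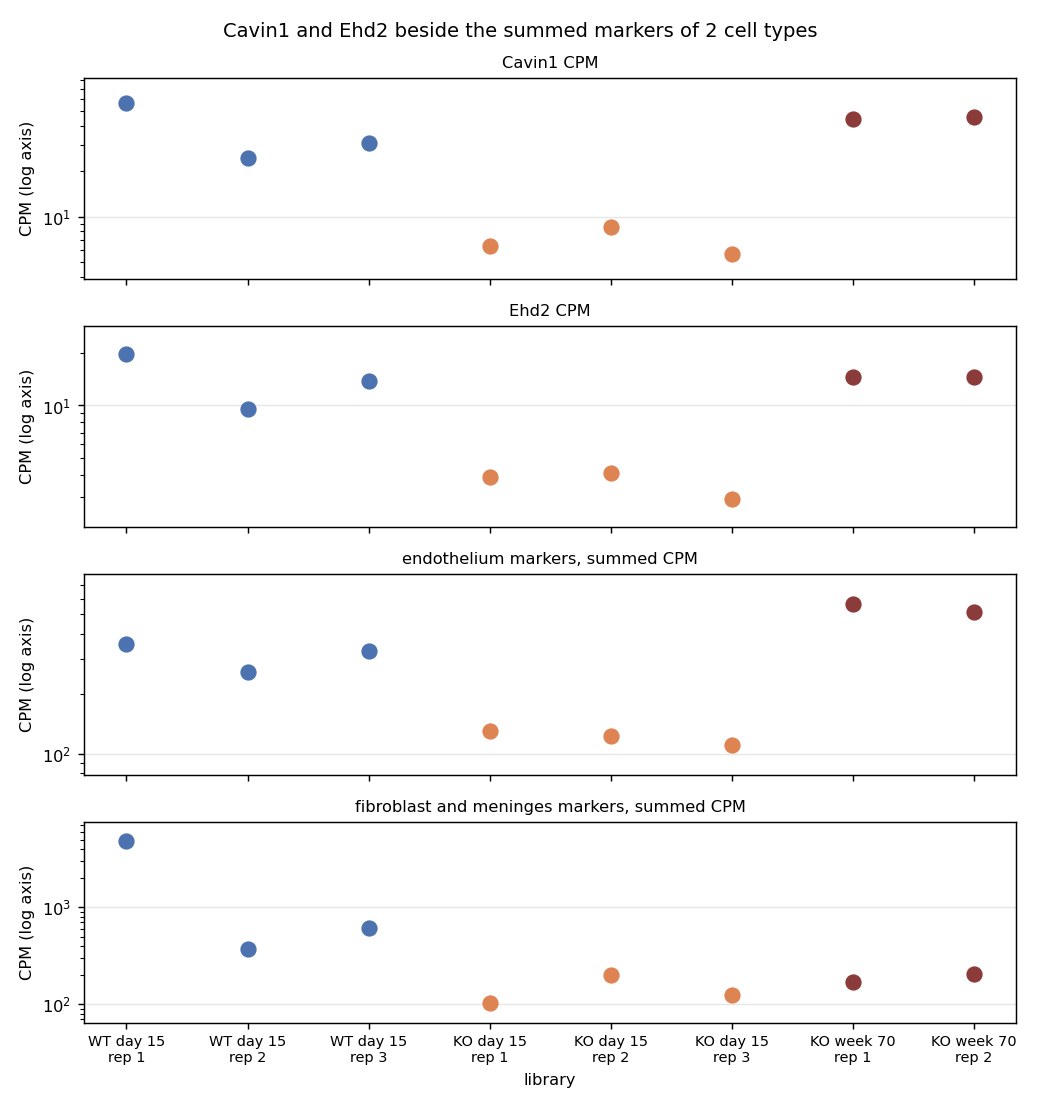
Normalised CPM of Cavin1 and Ehd2 (upper panels) and summed CPM of endothelium and of fibroblast and meninges markers (lower panels) in each of the 8 libraries, all on log axes. The 3 fetal KO libraries are lowest for Cavin1, Ehd2 and the endothelium markers, and WT day 15 replicate 1 reaches 4780 CPM of fibroblast and meninges markers.

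Other caveola genes and partners of caveolins were examined on 1 list that leaves the members out. Counts of the targeted gene, Cav1, were 367, 218 and 329 in WT but 0, 3 and 1 in fetal KO and 1 and 5 at week 70. For its paralog Cav2 the counts were 157, 97 and 129 in WT against 223, 305 and 394 in fetal KO, and it was higher in KO by 1.56 on the log2 scale (SE 0.206, adjusted p 7.66e-05). Cav3, the muscle caveolin, had 0 to 5 counts per library and was not tested. Of 14 tested genes 11 were lower and 1 higher, with a median of -0.84, or of -0.22 once length and GC content were corrected for. The 11 and the medians include Cav1, whose loss is set by the design. After Cav1 the largest falls were those of Plvap, which encodes the protein of caveolar and fenestral diaphragms, at -1.88 (adjusted p 0.00146), and of Ror1, a receptor that binds cavin 1, at -1.84 (adjusted p 0.000162).

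Partners of EHD proteins and pacsins in endocytosis and recycling were divided. Of 30 tested genes 19 were lower and 7 higher in fetal KO, with a median of -0.34, or of -0.17 once length and GC content were corrected for. The largest falls were those of Rab11fip5, an effector of the recycling GTPase Rab11, at -1.54, of the actin nucleator gene Cobl at -0.96 and of Micall1, which encodes a partner of EHD1 on recycling tubules, at -0.93. The largest rises were those of the retromer subunit gene Vps35 at 0.75, the F-BAR gene Fcho2 at 0.61 and Rab11a at 0.45. Each of these 6 had an adjusted p below the threshold, the largest being 6.76e-05 for Fcho2.

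The second comparison asked how the members differed between week 70 and day 15 in the KO. All 10 passed the test and none overlapped between the ages: 9 were higher at week 70 and Cavin4 was lower. Among the 9, Ehd1 changed sign after the length and GC correction, as given below. Here 82% of the 20000 genes tested passed, 37.6% as higher and 44.4% as lower, and 87.7% did not overlap. The members' median log2 fold change was 2.45, against -0.19 over all genes. The comparison shares the fetal KO libraries with the first one. Marker sums differed widely between the ages: all 8 oligodendrocyte markers were higher at week 70, with sums of 81 to 85.5 CPM in fetal KO and of 13300 and 13600 CPM at week 70, and all 8 astrocyte markers were higher, with sums of 240 to 257 CPM and of 8740 and 8180 CPM.

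Pacsin1 had the largest difference, with 541 and 565 CPM at week 70 against 23.6 to 29.1 CPM in fetal KO. It rose 19.8-fold, a log2 fold change of 4.31 (SE 0.103, adjusted p 1.44e-10), or of 3.37 after the length and GC correction. Of 14 neuron markers 12 were higher and 2 lower, and their sums went from 3420 to 3510 CPM to 18500 and 17700 CPM. Pacsin2, which is not restricted to neurons, had 82.3 and 92.8 CPM at week 70, an increase of 2.32 (SE 0.0976, adjusted p 5.28e-09). The part of neurons in these differences was not tested.

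Ehd3 was the EHD gene with the largest rise, at 116 and 152 CPM in the week 70 libraries and a log2 fold change of 3.27 (SE 0.119, adjusted p 1.92e-09). Ehd4 had 18.9 and 20.7 CPM and rose by 2.68 (SE 0.18, adjusted p 1.91e-07), and Ehd2 had 14.6 and 14.5 CPM and rose by 1.90 (SE 0.198, adjusted p 6.5e-06), or by 1.21 after the correction. Ehd1 had 69.9 and 69.8 CPM, above every fetal KO library. Its log2 fold change was 0.59 (SE 0.0874, adjusted p 0.000107), but it was -0.33 after the length and GC correction (adjusted p 0.00522), so that no direction with age is given for Ehd1.

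Cavin1 had 44.3 and 45.6 CPM at week 70 and rose by 2.60 (SE 0.156, adjusted p 7.7e-08), Cavin2 had 17.7 and 23.9 CPM and rose by 2.58, and Cavin3 had 38.8 and 33.3 CPM and rose by 2.32. These 3 cavins thus differed by similar amounts between the ages, although only Cavin1 and Cavin2 had passed the test between genotypes at day 15. After the correction the rises were 1.81, 3.05 and 2.16 in the same order. Endothelium markers also rose, in 14 of 15 tested genes, from sums of 111 to 130 CPM to 563 and 513 CPM, and the part of endothelium was not tested. Per 100 CPM of these markers, Cavin1 was at 7.87 and 8.89 at week 70, above the 4.97 to 6.96 of fetal KO and below the 9.39 to 15.7 of fetal WT. Per 100 CPM of pericyte and smooth muscle markers it was at 20.2 and 21, above both fetal groups, so that its place against WT turned with the marker list.

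Cavin4 went the other way. It had 82 to 94 counts in the fetal KO libraries and 10 and 7 counts at week 70, for which exact 95% Poisson intervals, which cover counting error only, run from 4.8 to 18.4 and from 2.81 to 14.4 counts. In CPM it fell from 4.67 to 5.19 to 0.645 and 0.480, a log2 fold change of -3.21 (SE 0.333, adjusted p 6.39e-06). Summed striated muscle markers were 29.3 to 43.9 CPM in fetal KO and 36 and 31.4 CPM at week 70, so that those ranges overlapped while the Cavin4 ranges did not. The sum hides changes in both directions, as 3 of 7 tested muscle markers were higher at week 70 and 3 were lower. The part of muscle in the Cavin4 difference was not tested. Of 10 progenitor markers 9 were lower at week 70, and their sums went from 1270 to 1360 CPM to 162 and 169 CPM; the part of these cells in the Cavin4 difference was not tested.

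Of the other caveola genes and caveolin partners 9 of 13 tested were higher at week 70 and 2 were lower. Their median of 1.32 was 0.29 after the correction. The largest rises were those of Plvap at 3.45, of Pacsin3, the muscle pacsin, at 2.51 and of the calcium channel gene Trpv4 at 2.24. The falls were those of Flna, which encodes an actin crosslinker that links caveolae to stress fibres, at -3.14 and of the fatty acid transporter gene Cd36 at -2.54. Cav2 rose by 1.64, to 954 and 809 counts. Of 30 partners of EHD proteins and pacsins 17 were higher and 8 lower (median 0.53), led by the neuronal dynamin gene Dnm1 at 3.67, Rab11fip5 at 2.92 and the synaptic endophilin gene Sh3gl2 at 2.66. Fnbp1l, an F-BAR gene related to the pacsins, fell most, at -3.67, followed by Fcho2 at -1.34 and Ehbp1 at -0.71.

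The third pair of groups, week 70 KO against fetal WT, differs in genotype and age together, which cannot be told apart, and it shares its libraries with the other comparisons. Of the members 6 were higher in week 70 KO, 2 were lower and 2 did not pass the test, and 8 did not overlap. The background was 78.6% of 19465 genes called, 36.7% higher and 41.9% lower, and 86.5% without overlap, and the members' median was 1.22 against -0.16 over all genes. Pacsin1 was higher by 3.81, Cavin3 by 2.32, Ehd3 by 2.26, Cavin2 by 1.97, Pacsin2 by 1.46 and Ehd4 by 0.99. Cavin4 was lower, at -2.90, and so was Ehd1, at -0.65.

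Cavin1 and Ehd2 were the members whose week 70 KO levels lay within the range of fetal WT. Cavin1 differed by 0.31, with a 95% interval from -0.31 to 0.93 (adjusted p 0.391), and Ehd2 by 0.05, with an interval from -0.51 to 0.61 (adjusted p 0.875). Neither value shows that the levels are equal, and that of Cavin1 rested on 1 library: without WT replicate 1 it was 0.74 and passed the test (adjusted p 0.0022). In the order of the 3 groups on uncorrected values, Ehd4, Cavin2, Ehd3, Pacsin1 and Pacsin2 ran from fetal KO through fetal WT to week 70 KO, and Ehd1 from fetal KO through week 70 KO to fetal WT. For Cavin3 and Cavin4 the fetal groups could not be ordered beyond their spread, and for Cavin1 and Ehd2 the groups next to each other at the top could not be.

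On the list of other caveola genes and caveolin partners 6 of 14 tested genes were higher and 6 lower in week 70 KO than in fetal WT (median -0.13). Cav2 was higher by 3.24, Flot1 by 1.82 and Pacsin3 by 1.67, and Cav1 at -6.16, Flna at -3.52 and Cd36 at -2.27 were lowest. Of the EHD and pacsin partners 14 were higher and 7 lower (median 0.13), with Dnm1 at 2.95 and Sh3gl2 at 2.68 above the others and Fnbp1l at -3.20 lowest.

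Ratios of counts within a library do not depend on the scaling of libraries, and 8 ratios were compared over the 3 pairs of groups, 24 tests in all. Groups of 3 against 3 or 3 against 2 cannot go below p = 0.1 in a two-sided exact permutation test, and the smallest adjusted p was 0.133, so that none could pass the threshold. The Cavin2 to Cavin1 ratio was 0.112, 0.175 and 0.184 in WT, 0.472, 0.406 and 0.560 in fetal KO and 0.399 and 0.525 at week 70. It was higher in every KO library than in any WT library, and the 2 ages of KO overlapped. Counts are not corrected for length and GC content, and with that correction the fetal log2 fold changes of Cavin2 and Cavin1 lay closer together, at -1.00 and -1.78, than without it, at -0.65 and -2.33. The ratio of Cavin3 to Cavin1 had the same pattern, with 0.183 to 0.228 in WT, 0.761 to 1.21 in fetal KO and 0.876 and 0.731 at week 70.

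Cavin4 to Cavin1 separated all 3 groups, at 0.0738 to 0.177 in WT, 0.606 to 0.820 in fetal KO and 0.0146 and 0.0105 at week 70. Ehd2 to Cavin1, the neck ATPase against the coat, was 0.352, 0.388 and 0.448 in WT, 0.602, 0.477 and 0.510 in fetal KO, and 0.329 and 0.317 at week 70. Its groups did not overlap. WT and fetal KO differed by 0.42 on the log2 scale for this ratio, against 1.63 to 2.56 for the other ratios to Cavin1, and both genes were lower in fetal KO than in either of the other groups.

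Within the EHD family, Ehd3 to Ehd1 was 0.239 to 0.283 in WT and 0.293 to 0.303 in fetal KO, and 1.66 and 2.18 at week 70. Ehd4 to Ehd1 was 0.0816 to 0.0999 in WT, 0.0595 to 0.0698 in fetal KO, and 0.270 and 0.297 at week 70, and Ehd2 to Ehd1 overlapped between the fetal groups. Pacsin1 to Pacsin2 was 1.13, 1.11 and 1.51 in WT, 1.47, 1.79 and 1.53 in fetal KO, and 6.58 and 6.09 at week 70. The fetal groups overlapped for this ratio, and the week 70 libraries lay above all fetal libraries.

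**Figure D4:**
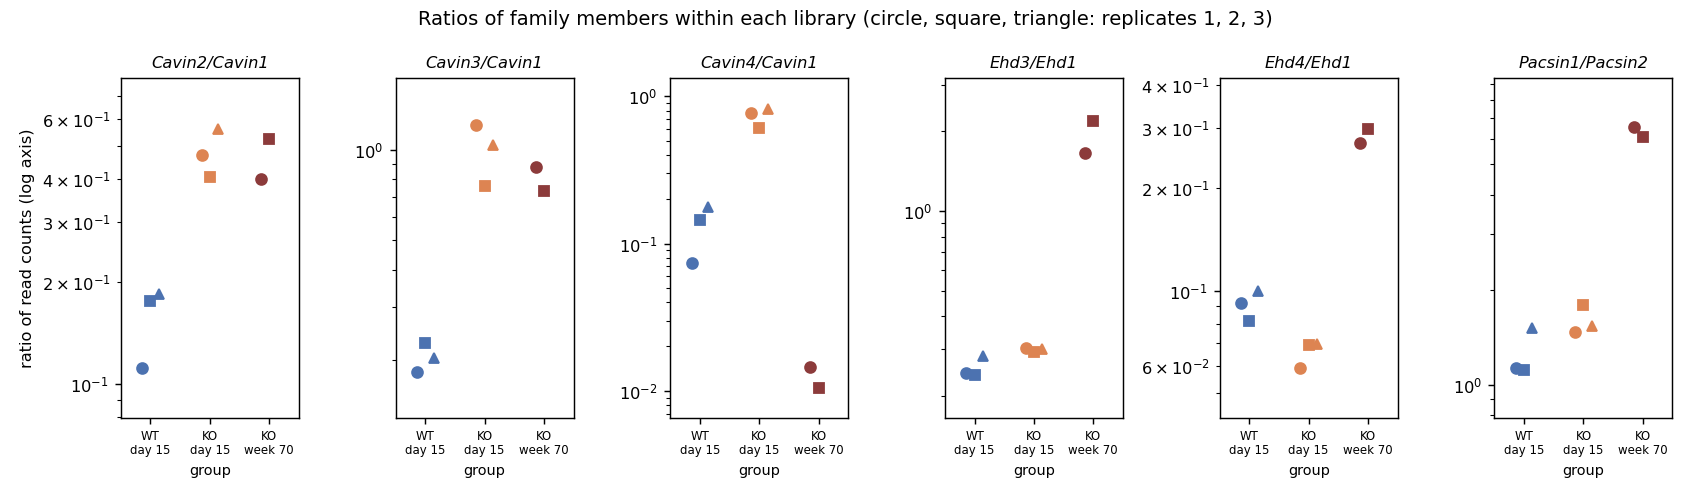
Ratios of read counts between members of a family in each library, on log axes whose range differs between panels; circles, squares and triangles are replicates 1, 2 and 3. Cavin2 to Cavin1 and Cavin3 to Cavin1 lie higher in all 5 KO libraries than in the 3 WT libraries, while Ehd3 to Ehd1 and Pacsin1 to Pacsin2 lie highest in the 2 week 70 libraries.

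The genes whose log2 CPM followed a member most closely over the 6 fetal libraries were found among 12490 candidates, as a description with no test, since the genotype groups and the depth of the libraries enter every such correlation. Cavin1 was followed by Rab3il1 and Itga5 (Pearson's r 0.9995 each) and Ccnd3, and Ehd2 by Kank2 (0.9996), S1pr3 and Rflnb. For Ehd4 the nearest gene was Cav1 itself (0.9991), then Clic6 and Ppp2r2a. Cavin2 was followed by Cyp1b1 (0.9991), Ly75 and Spry4, Ehd1 by Cnnm2 (0.9999), Eif3b and Cap1, and Ehd3 by Jak1 (0.9995) and Tbc1d22b. Pacsin1 was followed by Mc4r (0.9981), Pon2 and Pnpla6, and Pacsin2 by Mcm3 (0.9995), Fiz1 and Tcf3. The nearest genes of the members that did not differ between the fetal groups were less close, with 0.9668 for Rnf215 and Cavin3 and 0.9867 for Fbxo9 and Cavin4.

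In the GENCODE annotation of GRCm38, 3 members overlap another gene. Cavin3 (chr7:105480083-105482300, minus strand) shares 374 exon bases with Gm45667 on the opposite strand, Cavin2 (chr1:51289126-51302960, plus strand) overlaps the antisense gene 9330175M20Rik without a shared exon base, and Pacsin2 (chr15:83375607-83464606, minus strand) holds the processed pseudogene Gm5417 without a shared exon base. Whether the counting used strand is not given in the sources used here, so reads of Cavin3 and Gm45667 from the shared stretch cannot be told apart. The table gives Gm45667 0 to 2 counts per library and Cavin3 104 to 602.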

How the data were processed

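Raw counts of reads per Ensembl gene, deposited as 1 table that covers all 8 libraries, were the starting point. Per the labels' protocols, polyadenylated RNA was captured on poly-T beads and fragmented before cDNA synthesis from random hexamers. The submitters' processing notes name FastQC, cutadapt, Trimmomatic, HISAT2, featureCounts and edgeR, and the builds GRCm38 and GRCm39; which of these builds the counts rest on, the gene models, the strand setting and how ambiguous reads were handled are not given in the sources used here. Groups follow the sample titles. All 34299 genes stayed in, 351 of them without a symbol.

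The members, the gene lists and the tests were chosen with earlier results of these data known. Each pair of groups was fitted alone on the deposited counts with edgeR 4.0.16 in R 4.3.3: filterByExpr with the groups, TMM scaling, the two-sided quasi-likelihood F-test and Benjamini-Hochberg adjustment over all genes tested, with a threshold of 0.05. Standard errors are those implied by F, and 95% intervals are normal intervals from them. Levels are CPM scaled by TMM over all 8 libraries. Length and GC content came from the exons of GENCODE release M21 (GRCm38), which matched 97.3% of the gene identifiers. For the corrected fit, a smooth of length and GC content (mgcv 1.9.3) was fitted to the deviations of each library from the mean log level of every gene, and its fitted values served as offsets. Named genes were the 10 members, the caveolins, up to 3 called genes with the largest change in each direction from each of the 2 partner lists, and the 3 genes with a mean of at least 50 counts most correlated with each member, of which 1 is not reported here. Marker lists are described by counts, medians and sums. Alternatives were 2 other scalings (RLE, upper quartile), no filter or a mean of 10 counts, DESeq2 1.42.0, 1 fit of all libraries, the replicate number as a block, the correction, removal of haemoglobin and mitochondrial genes, and each library left out. The correction without WT replicate 1 was added after seeing the data. Scripts were tested on simulated data in which 200 genes differed by 1 on the log2 scale. For the day 15 and age comparisons 67.5% and 70% of these genes were recovered. False calls were 10% and 10.8% of all calls, more than the threshold of 0.05 aims at. A count of 0 allows up to 3 counts, 0.144 to 0.213 CPM, which covers counting error only.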

Additional observations from a re-analysis of the deposited data

How the results depend on the processing

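Of 480 values of the members under alternatives, 460 kept their direction and their side of the threshold, 18 changed sign and 2 came to pass the test; no call of a member under the first fit was lost except where the sign changed. Members called numbered 7 or 8 at day 15, 10 for age and 8 or 9 for the third pair. Cavin3 at day 15 turned to 0.13 with upper-quartile scaling, 0.12 with the length and GC correction, 0.15 with the correction and the replicate block and 0.40 with the correction and no WT replicate 1, and it ranged from -0.21 to 0.26 with 1 library left out. Cavin4 at day 15 became -0.0096 with the correction and -0.077 with it and no WT replicate 1. Pacsin1 at day 15 became 0.27 with the correction, 0.28 with the replicate block added and 0.21 without WT replicate 1. Ehd1 with age became -0.33 and -0.30 with the correction, alone and with the block. In the third pair Cavin1 became -0.019 with the correction and block, and 0.74 or, corrected, 0.39 without WT replicate 1, where it passed the test. Ehd2 there became -0.075 with upper-quartile scaling, -0.12 with the correction and -0.072 with the block added, and ranged from -0.15 to 0.35 with 1 library left out. The cause of these changes was not tested. The median of the EHD and pacsin partners in the third pair became -0.004 with upper-quartile scaling.

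The replicate numbers did not pair the samples (correlations of deviations -0.16, -0.19 and -0.175 between same-numbered fetal libraries). A replicate block left 11184, 14876 and 13244 genes called in the 3 comparisons, against 11993, 16390 and 15300 without it. DESeq2 called 10744, 16945 and 15483. Upper-quartile scaling moved the median of all genes at day 15 from 0.03 to 0.20 and the share of calls that were higher from 48.1% to 60.8%; for age the median went from -0.19 to -0.44 and for the third pair from -0.16 to -0.29. Depth limits Cavin4 at week 70, with 10 and 7 counts, most. Leaving out 1 of the 2 week 70 libraries assumes that the other varies like the fetal groups.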
